A study of Homo sapiens with 18 samples.

Results

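The 37 genes described here make up the NUPR1, ATF4 and unfolded protein response programme. They were taken by symbol from the 61541 Ensembl genes listed in each of 2 deposited read count tables, each symbol matched 1 gene, and all 37 passed the filter on low counts in both tables. Of these, 24 were placed on the ATF4 side (NUPR1, ATF4, their partner factors and their targets) and 10 on the XBP1 and ATF6 side (chaperones, folding enzymes and degradation factors of the endoplasmic reticulum, ER). The other 3 were kept apart as a sensor group, labelled ER stress sensors in the figures. It holds the sensors EIF2AK3 and ERN1 and, not itself a sensor, XBP1, whose mRNA ERN1 splices. The RNA came from A549, a human lung adenocarcinoma cell line with the genotype WT and no engineered change. One table holds untreated cells at 24 h (Control 24 h) and cells given sodium propionate (SP), a short-chain fatty acid salt, at 5 mM for 3 h or 24 h. The other holds untreated cells at 3 days (Control 3 days) and cells given 5 mM SP for 3 days or 12 days. Each of the 6 groups had 3 libraries, described by the study as biological replicates for 3 h and 24 h. For the later table the labels do not say that libraries were separate cultures, so p-values there measure a spread that may be technical. SP 3 h was set against Control 24 h and SP 12 days against Control 3 days, so at those times SP and time in culture cannot be told apart.

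Cells that meet misfolded protein in the ER, amino acid shortage, heme shortage or viral RNA phosphorylate the translation factor eIF2, which lowers general translation and raises translation of ATF4, a basic leucine zipper factor. ATF4 pairs with C/EBP proteins at C/EBP-ATF response elements and switches on genes for amino acid synthesis, amino acid uptake, tRNA charging and stress signalling, with NUPR1, DDIT3 and TRIB3 among its targets. Misfolded protein also engages ERN1 (IRE1), whose nuclease splices XBP1 mRNA, and ATF6, and these branches raise chaperones and degradation factors of the ER through ER stress response elements. Counts per gene do not separate spliced from unspliced XBP1, and they do not measure ATF4 translation.

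Library depth ran from 14187401 to 43765330 counts. The spread between replicates was smaller at 3 and 12 days, with a common biological coefficient of variation of 0.0996 and a median standard error (SE) of 0.129 for a log2 fold change, than at 3 and 24 h, where these were 0.199 and 0.202. All 5 epithelial markers and all 6 genes known for high levels in A549 passed the filter. The epithelial markers summed to 5999 to 8457 CPM (read counts scaled to a common library size) in the control and SP 3 h libraries and to 11010 to 15350 in SP libraries from 24 h on. Fibroblast markers summed to 6.41 to 21.5 CPM in the control libraries, 18.5 to 38.3 in SP 3 h and 34.6 to 89.1 in SP libraries from 24 h on, with 2 of 4 passing the filter, and DCN or COL1A2 at 0 reads in every group. Leukocyte markers summed to at most 0.877 CPM and endothelial markers to at most 2.88 CPM, and the part of any of these lists in the results was not tested. In bulk RNA, fewer cells of a kind and less RNA per cell cannot be told apart. When GC content and exon length were fitted as an offset per library, the centre of all genes shifted. The median log2 fold change went from −0.01 to −0.13 at 24 h, from −0.02 to −0.12 at 3 days and from −0.0037 to −0.0955 at 12 days. Calls against control that this correction changed are named with their values.

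The promoters of the members were scanned for elements known from both arms. RefSeq promoter windows (GRCh38.p14, 250 bases before to 50 after the start site) were matched for 34 of the 37 genes. Windows for NUPR1, PSPH and SHMT2 were not used here. On either strand, the C/EBP-ATF response element core TGATGNAA was found in 5 of 21 windows of the ATF4 side (CHAC1, ASNS, SLC3A2, CARS1 and AARS1) and in HERPUD1 of the XBP1 and ATF6 side, against 3.62% of all 35116 windows. The ER stress response element (CCAAT and CCACG parted by 9 bases of any kind) was found in HSPA5, CRELD2, XBP1 and, at 2 places, HSP90B1, against 0.0769% of all windows. The ER stress response element II (ATTGG and CCACG parted by 1 base) was found in SDF2L1 and HERPUD1, against 0.0541%. The unfolded protein response element TGACGTGG was found in 0 of 34 windows, against 0.729%. These last 3 motifs all hold CCACG or its reverse complement, so they overlap in letters. At least 1 of the 3 stood in 5 of 10 windows of the XBP1 and ATF6 side, 1 of 3 windows of the sensor group (XBP1) and 0 of 21 windows of the ATF4 side, against 0.857% of all windows. A match is only a run of letters, and no binding was measured.

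The matched sites are shown to let the elements of each arm be seen. Each line holds 30 bases on the strand of its gene with the match in capitals, and for HERPUD1, which holds an element of each kind, and SDF2L1 the whole 250 bases upstream of the start site. The core reads TTGCATCA, its reverse complement, in CHAC1 (chr15:40953251-40953280, plus strand), and TGATGAAA in ASNS (chr7:97872458-97872487, minus strand), and is also shown for AARS1 (chr16:70289675-70289704, minus strand). The ER stress response element is shown for HSPA5 (chr9:125241385-125241414, minus strand), XBP1 (chr22:28800597-28800626, minus strand) and HSP90B1, which carries 2 copies in opposite orientation (chr12:103930211-103930240 and chr12:103930316-103930345, plus strand). The upstream stretches lie at chr16:56931892-56932141 for HERPUD1 and chr22:21642052-21642301 for SDF2L1, both on the plus strand.
CHAC1: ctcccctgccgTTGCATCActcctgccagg
ASNS: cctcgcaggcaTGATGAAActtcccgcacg
AARS1: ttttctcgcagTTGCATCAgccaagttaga
HSPA5: cttcaCCAATCGGCGGCCTCCACGacgggg
XBP1: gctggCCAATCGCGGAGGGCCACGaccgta
HSP90B1: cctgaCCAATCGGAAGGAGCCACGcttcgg
HSP90B1: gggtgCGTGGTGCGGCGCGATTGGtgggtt
HERPUD1: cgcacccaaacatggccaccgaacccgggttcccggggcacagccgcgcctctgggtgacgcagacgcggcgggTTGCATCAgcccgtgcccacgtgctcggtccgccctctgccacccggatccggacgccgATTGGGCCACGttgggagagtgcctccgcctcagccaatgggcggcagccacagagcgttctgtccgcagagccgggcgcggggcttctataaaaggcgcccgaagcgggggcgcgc
SDF2L1: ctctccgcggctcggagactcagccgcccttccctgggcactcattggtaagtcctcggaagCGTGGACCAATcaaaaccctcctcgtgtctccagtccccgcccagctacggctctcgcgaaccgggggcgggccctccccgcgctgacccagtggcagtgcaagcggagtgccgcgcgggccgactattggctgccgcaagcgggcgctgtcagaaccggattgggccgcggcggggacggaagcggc

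**Figure D1:**
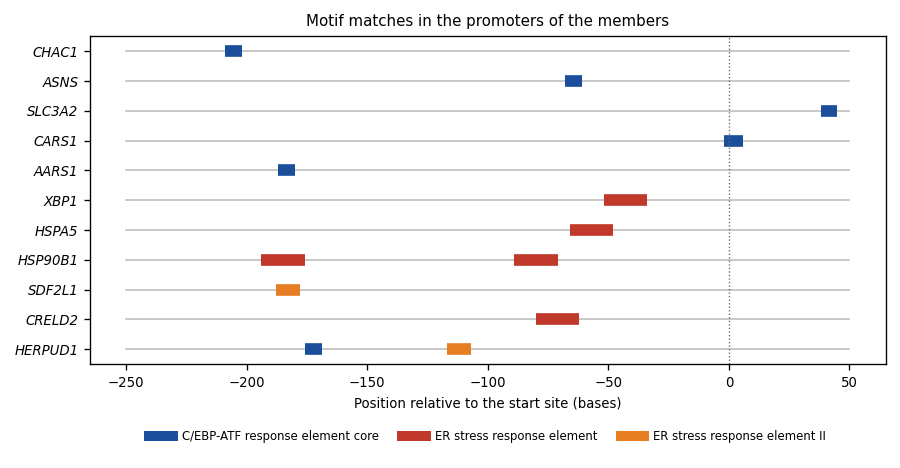
Motif matches in the promoters of the 11 members that hold any, by position in bases from the start site (0 on the axis), with each window drawn as a grey line. The C/EBP-ATF core lies in CHAC1, ASNS, SLC3A2, CARS1, AARS1 and HERPUD1, and the ER stress response elements lie in XBP1, HSPA5, HSP90B1, CRELD2, SDF2L1 and HERPUD1.

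Each SP group was compared with the control of its own table to ask when and in which direction the programme moved. At 3 h, 1 member rose (CEBPB) and 5 fell (NUPR1, ATF4, ATF5, TRIB3 and CEBPG) at an adjusted p under 0.05, where 7.39% of all genes tested rose and 4.11% fell. At 24 h, 5 members rose and 8 fell, against 16.8% and 12% of all genes. With the replicate number as a block 7 rose and 8 fell, for which no share of all genes is given. At 3 days, 2 rose and 25 fell, against 25.2% and 23.3%, and at 12 days 4 rose and 25 fell, against 26.4% and 23.4%. At the stricter threshold of the study (adjusted p under 0.0001 and at least 2-fold), 19 members fell at 3 days and 15 at 12 days, against 1.86% and 2.23% of all genes, and 0 rose at either time, where 6.58% and 6.88% of genes did. At 3 h no gene of the table passed that threshold, and at 24 h no member did, where 0.622% of genes rose and 0.0633% fell past it. DESeq2 placed 1 member, ATF5, past it as lower at 24 h, and 0 at 3 h. At an unadjusted p under 0.05, 6 members were higher and 7 lower at 3 h (14.9% and 10.2% of all genes), and 6 higher and 10 lower at 24 h (22.4% and 18.7%). The SP and control libraries did not overlap for 7 members higher and 7 lower at 3 h (15.6% and 11.7% of all genes), 9 and 11 at 24 h (24.6% and 19.8%), 3 and 25 at 3 days (30.5% and 30.7%), and 3 and 30 at 12 days (28.7% and 27.3%). Comparisons within a table share their control libraries. Without SP 3 h replicate 1 or 2, or with these 2 groups fitted alone, 1 member fell at 3 h, and without Control 24 h replicate 1 or SP 24 h replicate 3, 2 members rose at 24 h.

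**Figure D2:**
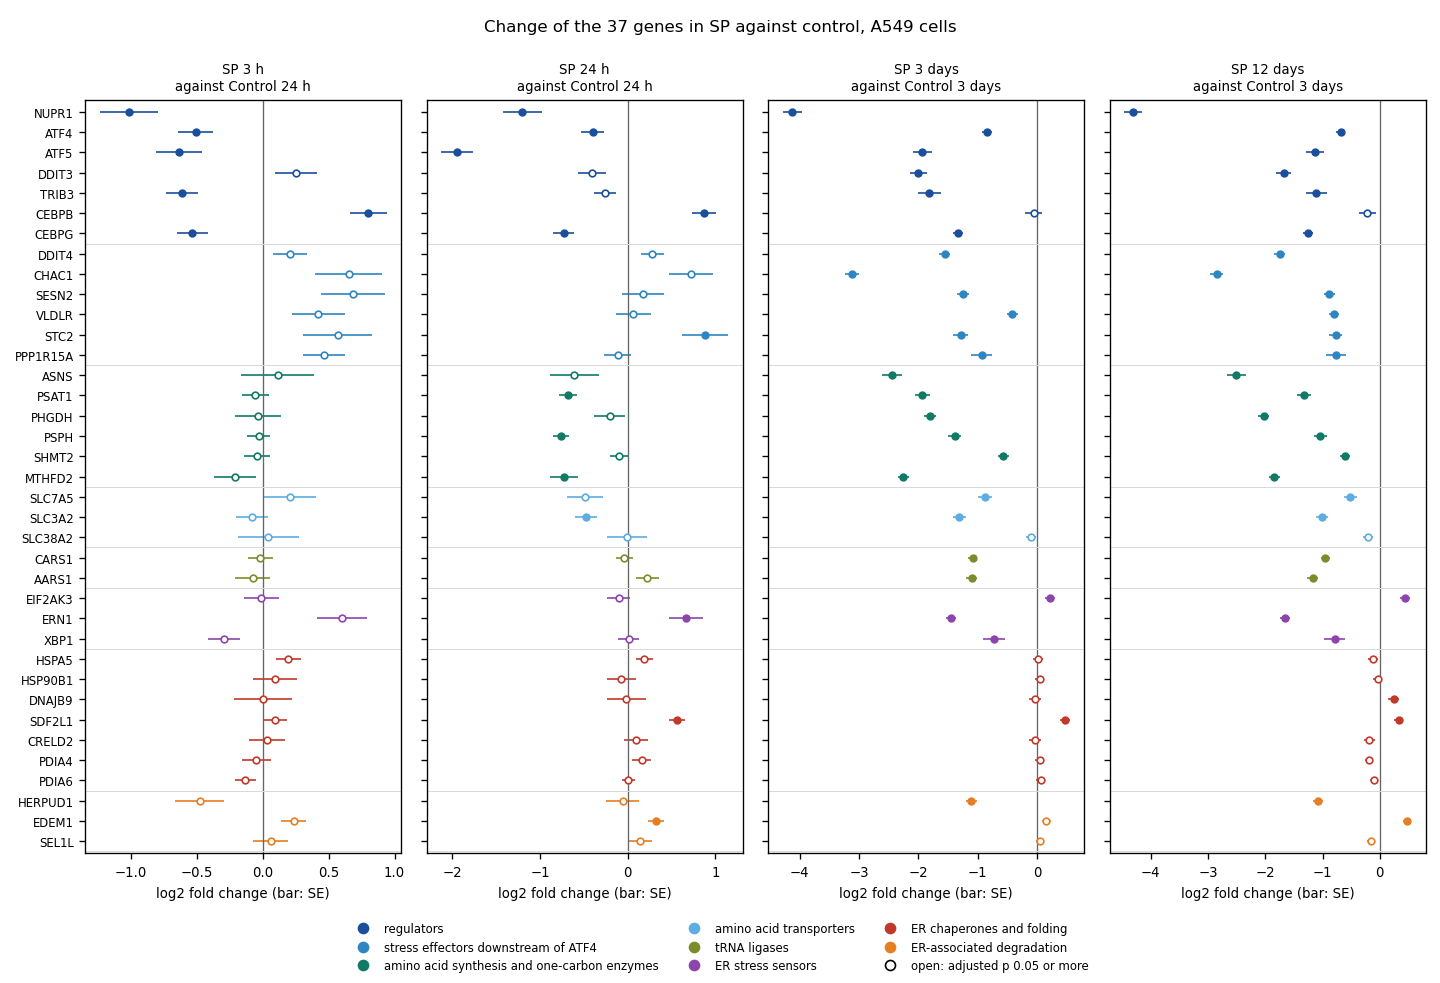
Log2 fold change of each of the 37 genes (points, with SE bars, n = 3 libraries per group) in the 4 comparisons with control, coloured by role, filled at an adjusted p under 0.05 and open otherwise; each panel has its own x axis. All 24 points of the ATF4 side lie left of 0 at 3 and 12 days, from −4.13 for NUPR1 to −0.06 for CEBPB at 3 days. Those of the chaperones and folding enzymes lie on both sides of 0, with SDF2L1 called higher at both times and DNAJB9 at 12 days.

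In the uncorrected fit the counts of the sides lay far apart at 3 and 12 days. On the ATF4 side 22 of 24 genes fell at 3 days and 22 of 24 at 12 days, with medians of −1.32 and −1.07 on the log2 scale, while the median of all genes was −0.02 and −0.0037. On the XBP1 and ATF6 side 1 of 10 genes fell at either time (HERPUD1), 1 rose at 3 days (SDF2L1), and 3 rose at 12 days (SDF2L1, DNAJB9 and EDEM1), with medians of 0.04 and −0.11. Of all genes, 25.2% rose and 23.3% fell at 3 days, and 26.4% rose and 23.4% fell at 12 days. The risers of this side were thus near or below the share of all genes. The calls of SDF2L1 and DNAJB9 did not hold in every fit, as given below. At 24 h the ATF4 side had 2 genes higher and 8 lower (median −0.23) and the XBP1 and ATF6 side 2 higher and 0 lower (median 0.12; 0 lower also at an unadjusted p under 0.05 and by DESeq2). Of all genes, 16.8% rose and 12% fell at 24 h, and the risers of the XBP1 and ATF6 side were near that share. At 3 h the medians were −0.02 and 0.05. With the correction for GC content and length, members that fell at 24 h were 16 in place of 8, and members that rose 3 in place of 5. The median of all genes moved down as well, to −0.13, with −0.17 for the members. At 12 days this correction called HSPA5, CRELD2, PDIA4, PDIA6 and SEL1L of the XBP1 and ATF6 side lower, and SDF2L1 lost its rise. On the ATF4 side it called CEBPB and SLC38A2 lower. The median of all genes moved there from −0.0037 to −0.0955. At 3 days it called CRELD2 and CEBPB lower, and SDF2L1 again lost its rise. No share of all genes is given for the corrected fits, so their counts are not read as particular to the members.

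**Figure D3:**
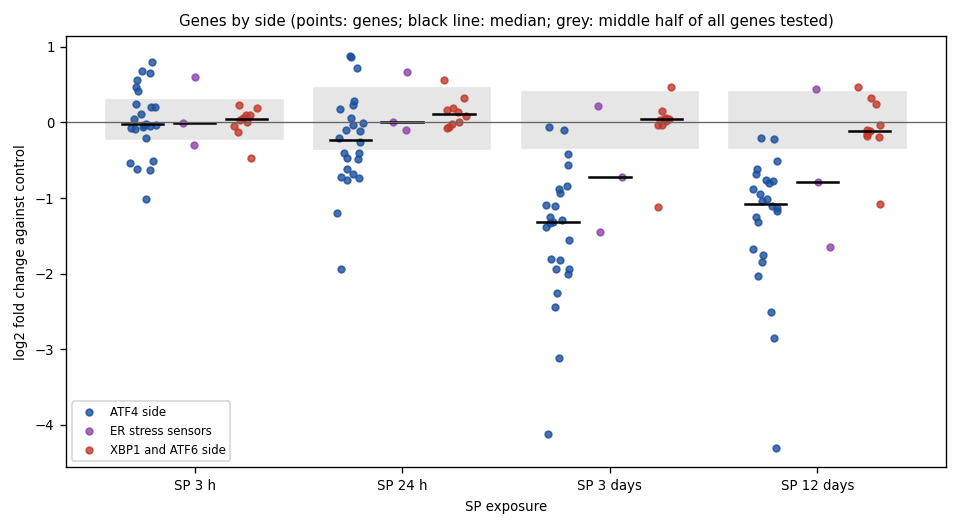
Log2 fold changes of the members against the control of their table at each SP exposure; points are genes, the black line is the median of the side, and the grey box spans the interquartile range of all genes tested. The ATF4 side has medians of −1.32 at 3 days and −1.07 at 12 days, below the grey box, and the XBP1 and ATF6 side has medians of 0.04 and −0.11, inside it.

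NUPR1, a small stress-induced chromatin protein, was the member with the largest fall at 3 days and at 12 days. It lies on chromosome 16 (GRCh38, 28532708 to 28539008, minus strand) and shares no exon with another gene of the tables. Control 3 days held 36.9, 37.5 and 39.2 CPM, SP 3 days 1.83, 2.32 and 2.33 and SP 12 days 1.90, 1.35 and 2.44. The control libraries stood far above all 6 SP libraries, with means of 37.9 ± 1.18 against 2.16 ± 0.286 and 1.89 ± 0.545 CPM (SD, n = 3). The log2 fold change was −4.13 ± 0.16 (SE) at 3 days, a 17.5-fold fall (edgeR adjusted p = 3.16e-11), and −4.30 ± 0.16 at 12 days, a 19.8-fold fall (adjusted p = 2.01e-11). At the early times the gene was low in all libraries, at 2.59, 2.96 and 2.104 CPM in Control 24 h, 1.06, 1.46 and 1.18 in SP 3 h and 0.931, 1.14 and 1.22 in SP 24 h. The groups did not overlap, and NUPR1 fell by 1.01 ± 0.22 at 3 h (adjusted p = 0.018) and by 1.2 ± 0.22 at 24 h (adjusted p = 0.0035) on the log2 scale. The 3 h call was lost without Control 24 h replicate 2, SP 3 h replicate 1 or SP 3 h replicate 3 (adjusted p up to 0.0618).

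ATF4 mRNA fell at all 4 times, by less than 2-fold. Its level was 202, 165 and 199 CPM in Control 24 h, 144, 119 and 136 in SP 3 h and 153, 123 and 154 in SP 24 h. In the other table it was 364, 327 and 385 CPM in Control 3 days, 192, 199 and 207 in SP 3 days and 228, 218 and 226 in SP 12 days. Every SP library was below every control library of its table. The log2 fold changes were −0.51 ± 0.13 at 3 h and −0.40 ± 0.13 at 24 h (adjusted p = 0.0348 and 0.0458), then −0.85 ± 0.08 at 3 days and −0.68 ± 0.08 at 12 days (adjusted p = 4.32e-07 and 3.77e-06). The calls at 3 h and 24 h were each lost on leaving out any of 7 of the 9 libraries of that table (adjusted p up to 0.141 and 0.167), with the log2 fold change staying between −0.60 and −0.30.

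Of the factors that work with ATF4, ATF5, CEBPG, DDIT3 and TRIB3 fell at 3 and 12 days and CEBPB did not pass the test. ATF5, a related leucine zipper factor that is itself an ATF4 target, was the member with the largest fall at 24 h. It held 64.0, 44.8 and 64.5 CPM in Control 24 h, 43.2, 30.4 and 38.1 in SP 3 h and 16.4, 14.7 and 13.9 in SP 24 h. SP 24 h lay far below both other groups, −1.94 ± 0.18 on the log2 scale (adjusted p = 0.000128), after −0.64 ± 0.17 at 3 h (adjusted p = 0.045, lost without any of 8 of the 9 libraries). ATF5 in Control 3 days stood at 23.5, 22.6 and 24.8 CPM, in SP 3 days at 6.58, 6.58 and 5.38 and in SP 12 days at 11.3, 13.2 and 7.89. The groups were separate again, with log2 fold changes of −1.93 ± 0.16 and −1.13 ± 0.15 (adjusted p = 1.17e-07 and 1.5e-05). At 12 days ATF5 lost the study's threshold without SP 12 days replicate 3 or any Control 3 days library.

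CEBPG (C/EBP gamma), a partner of ATF4, fell at every time. Control 24 h libraries gave 133, 112 and 105.4 CPM for it, SP 3 h 78.0, 74.6 and 89.7 and SP 24 h 71.5, 65.8 and 74.2. The later table gave 156, 176 and 149 in Control 3 days, 62.1, 63.5 and 65.6 in SP 3 days and 70.3, 67.1 and 64.5 in SP 12 days. No SP library reached its control, and the log2 fold change went from −0.53 ± 0.12 at 3 h (adjusted p = 0.0203, lost without SP 3 h replicate 1 or 2) and −0.73 ± 0.12 at 24 h (adjusted p = 0.00214) to −1.33 ± 0.08 at 3 days and −1.25 ± 0.08 at 12 days (adjusted p = 3.93e-09 and 6.36e-09). CEBPB (C/EBP beta), chosen for mention after its values were seen, went the other way early. Its means were 100 ± 12.0 CPM in Control 24 h, 174 ± 18.7 in SP 3 h and 183 ± 25.5 in SP 24 h (SD, n = 3). It rose by 0.80 ± 0.14 at 3 h and 0.87 ± 0.14 at 24 h on the log2 scale (adjusted p = 0.00665 and 0.00195), but with the offset for GC content and length the 24 h value was 0.15 (adjusted p = 0.367). At 3 days its change was −0.06 ± 0.15, with a 95% interval of −0.35 to 0.23, and the corrected value was −0.58 (adjusted p = 0.00121). At 12 days it was −0.22 ± 0.15 (adjusted p = 0.242), or −0.62 corrected (adjusted p = 0.000707).

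DDIT3 (CHOP), the ATF4 target linked to stress-induced cell death, and TRIB3, a pseudokinase that restrains ATF4, fell at 3 and 12 days. DDIT3 held 23.6, 27.5 and 26.1 CPM in Control 3 days, 6.04, 5.67 and 7.54 in SP 3 days and 7.84, 9.23 and 7.04 in SP 12 days. The control libraries were above all SP libraries, with log2 fold changes of −2.00 ± 0.14 and −1.68 ± 0.13 (adjusted p = 1.15e-08 and 4.73e-08). DDIT3 was low in the early table, at 5.56, 5.28 and 5.68 CPM in Control 24 h, 5.996, 6.94 and 6.68 in SP 3 h and 3.48, 4.05 and 4.90 in SP 24 h. SP 3 h lay just above and SP 24 h just below the control, and neither difference passed the test (0.25 ± 0.16, adjusted p = 0.376, and −0.41 ± 0.16, adjusted p = 0.0803), while once corrected for GC content and length DDIT3 was called lower at 24 h (−0.44, adjusted p = 0.0364). TRIB3 stood at 309, 324 and 342 CPM in Control 3 days, 88.9, 95.7 and 91.4 in SP 3 days and 167, 187 and 99.2 in SP 12 days. SP 12 days replicate 3 was at the level of SP 3 days and the other 2 libraries of its group lay between the SP 3 days and control libraries. TRIB3 fell by 1.82 ± 0.19 at 3 days and 1.11 ± 0.19 at 12 days (adjusted p = 3.78e-05 and 0.000888), and without SP 12 days replicate 3 the 12-day value was −0.89. At 3 days TRIB3 lost the study's threshold without any single Control 3 days or SP 3 days library. The early libraries held 102, 89.7 and 96.6 CPM in Control 24 h, 67.0, 59.5 and 62.2 in SP 3 h and 94.1, 70.5 and 75.8 in SP 24 h, so that SP 3 h was below the control and SP 24 h overlapped it. The 3 h fall was −0.61 ± 0.12 (adjusted p = 0.0127, lost without SP 3 h replicate 2), and the 24 h value of −0.26 ± 0.12 did not pass (adjusted p = 0.14; −0.81 and 0.00314 once corrected for GC content and length).

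**Figure D4:**
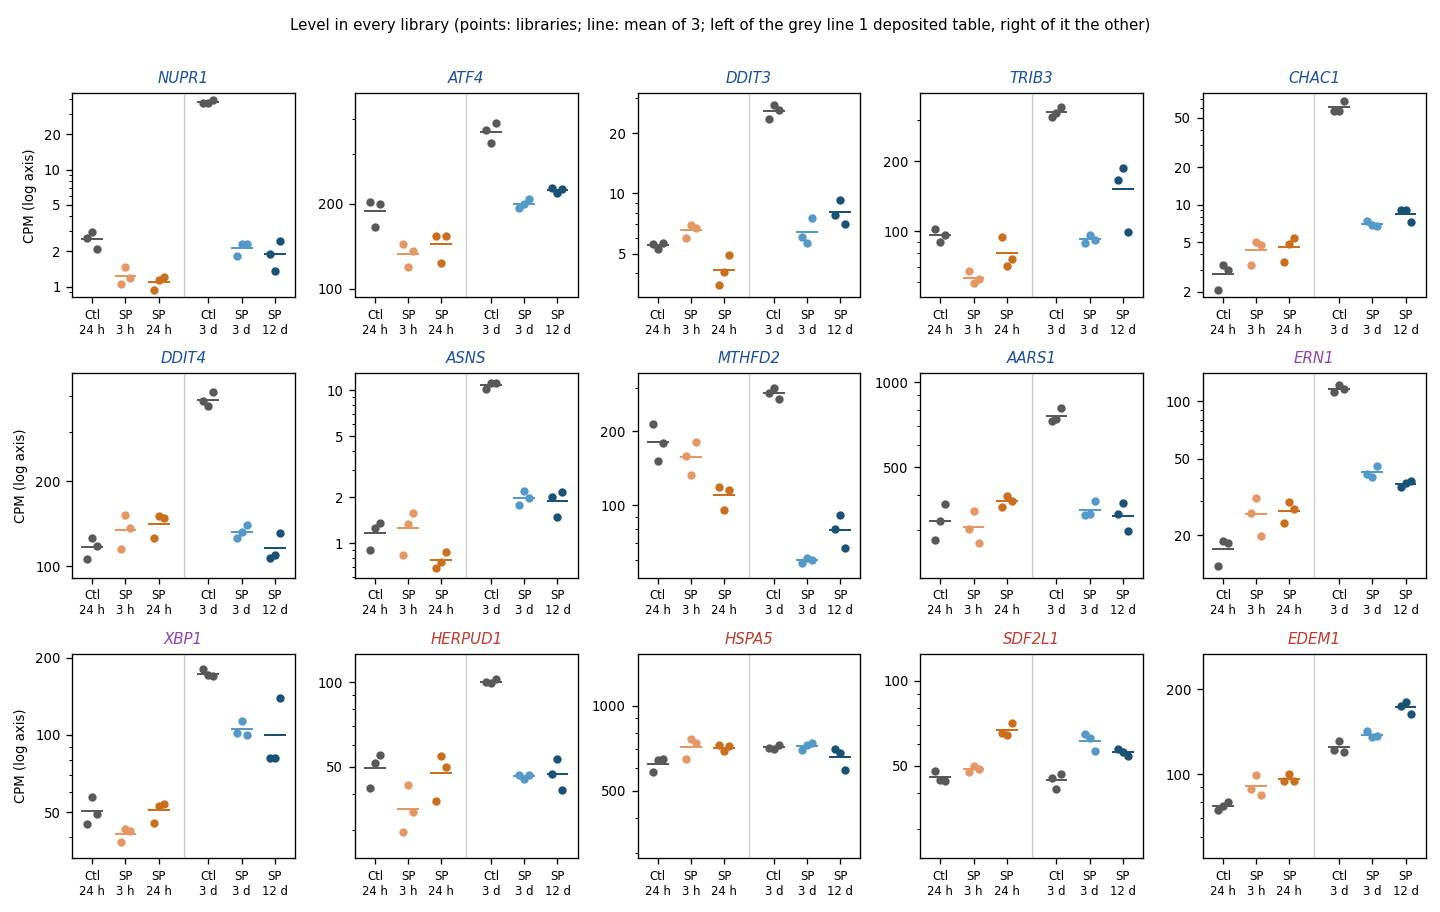
CPM on a log axis in every library (points) of 15 members, with the mean of the 3 libraries as a line; the grey line parts the 2 deposited tables. CPM were scaled within each table, so levels on the 2 sides of that line are not on a common scale. For NUPR1, CHAC1, ASNS, ERN1 and DDIT3 the 3 Control 3 days libraries stand apart above all other 15, and for HSPA5 the levels run from 580.1 to 759 CPM over all 18 libraries.

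The 6 stress effectors downstream of ATF4 all fell at 3 and 12 days. At 24 h their log2 fold changes were −0.12 to 0.88 with 1 past the test (STC2). At 3 h they were 0.21 to 0.68, with 0 past the test in the main edgeR fit or by DESeq2. Other edgeR fits called some of them higher at 3 h. These were CHAC1 with the replicate number as a block and SESN2 without the expression filter. With the block and the GC content and length correction together they were SESN2, STC2 and PPP1R15A. CHAC1, an enzyme that degrades glutathione, held 56.9, 56.9 and 68.4 CPM in Control 3 days, 7.38, 6.89 and 6.76 in SP 3 days and 9.04, 8.98 and 7.31 in SP 12 days. All 6 SP libraries were several times lower than the control libraries, at 8.66-fold and 7.22-fold falls (log2 −3.11 ± 0.12 and −2.85 ± 0.12; adjusted p = 3.14e-11 and 5e-11). In the early table CHAC1 was at 2.06, 3.28 and 2.98 CPM in Control 24 h, 3.25, 4.96 and 4.77 in SP 3 h and 3.44, 4.83 and 5.40 in SP 24 h. SP 24 h lay above the control with no overlap and SP 3 h overlapped it, but the log2 fold changes of 0.65 ± 0.25 and 0.72 ± 0.25 did not pass (adjusted p = 0.139 and 0.057). With the replicate number as a block, the 24 h value was 0.72 (adjusted p = 0.00949), and with the GC content and length correction it was 0.12 (adjusted p = 0.703).

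DDIT4 (REDD1), which restrains mTORC1, held 106, 126 and 118 CPM in Control 24 h, 115, 152 and 136 in SP 3 h and 126, 150.5 and 148 in SP 24 h. SP 24 h was just above the control, by 0.28 ± 0.13 (adjusted p = 0.129; 0.0382 with the replicate block; −0.17 and 0.306 with the GC content and length correction). DDIT4 in Control 3 days was 384, 369.8 and 413 CPM, in SP 3 days 126, 132 and 139.6 and in SP 12 days 107, 109 and 131. The log2 fold changes were −1.56 ± 0.09 and −1.75 ± 0.09 (adjusted p = 2.21e-09 and 6.32e-10). In CPM, which were scaled within each table, these SP libraries lay within the range of the early table. SESN2, a leucine sensor that also restrains mTORC1, stood at 45.0, 40.2 and 47.4 CPM in Control 3 days, 18.3, 17.8 and 19.6 in SP 3 days and 24.3, 25.9 and 21.8 in SP 12 days. It was lower in all SP libraries, at log2 fold changes of −1.25 ± 0.10 and −0.88 ± 0.10 (adjusted p = 6.72e-08 and 2.06e-06). SESN2 libraries of the early table gave 6.62, 10.2 and 13.5 CPM in Control 24 h, 15.9, 17.2 and 15.9 in SP 3 h and 9.19, 11.5 and 13.7 in SP 24 h, with SP 3 h above the control but not past the test (0.68 ± 0.24, adjusted p = 0.106).

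STC2, a secreted glycoprotein induced by ER stress, rose at 24 h and fell at 3 and 12 days. Its early libraries held 37.0, 21.4 and 42.1 CPM in Control 24 h, 58.5, 44.2 and 46.5 in SP 3 h and 72.3, 44.4 and 68.6 in SP 24 h. SP 24 h libraries lay above the control, replicate 2 being the lowest of its group in both, and the rise was 0.88 ± 0.26 in log2 (adjusted p = 0.0347), a call lost without Control 24 h replicate 1 or 2 or SP 24 h replicate 1 or 3 and with the GC content and length correction (0.68, adjusted p = 0.0569). STC2 in Control 3 days stood at 113, 120.1 and 109 CPM, in SP 3 days at 47.0, 45.0 and 47.7 and in SP 12 days at 72.5, 76.8 and 51.3. All SP libraries were lower, with log2 fold changes of −1.29 ± 0.12 at 3 days and −0.77 ± 0.12 at 12 days (adjusted p = 5.14e-07 and 6.76e-05). VLDLR, a lipoprotein receptor, and PPP1R15A (GADD34), which directs dephosphorylation of eIF2, fell by less than 2-fold, with log2 fold changes of −0.42 and −0.94 at 3 days and −0.80 and −0.77 at 12 days. PPP1R15A was also called lower at 24 h with the GC content and length correction (−0.55, adjusted p = 0.017; −0.12 without it).

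All 6 enzymes of amino acid synthesis and the one-carbon pathway fell at 3 and 12 days. ASNS, asparagine synthetase, was the lowest of them in level. It held 10.1, 11.2 and 11.2 CPM in Control 3 days, 1.77, 2.19 and 1.97 in SP 3 days and 2.02, 1.497 and 2.17 in SP 12 days, so that the control stood far above both SP groups. The falls were 5.45-fold and 5.68-fold (log2 −2.45 ± 0.17 and −2.51 ± 0.17; adjusted p = 1.73e-08 and 9.86e-09). ASNS was near the filter in the early table, at 0.9, 1.27 and 1.37 CPM in Control 24 h, 0.847, 1.33 and 1.59 in SP 3 h and 0.688, 0.761 and 0.878 in SP 24 h. SP 24 h lay below the control with no overlap, at −0.61 ± 0.28, and did not pass (adjusted p = 0.131). Of its 4896 exon bases 2415 are shared with a second gene on the same strand, ENSG00000284707, which held 45 to 166 reads per library, so the ASNS level is uncertain.

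PHGDH, PSAT1 and PSPH catalyse the successive steps of serine synthesis. PHGDH stood at 128, 128 and 144 CPM in Control 3 days, 33.8, 38.3 and 42.6 in SP 3 days and 33.1, 35.3 and 29.8 in SP 12 days. All 6 SP libraries were far below the control libraries, at log2 fold changes of −1.80 ± 0.10 and −2.03 ± 0.10 (adjusted p = 1.24e-09 and 3.7e-10). In the early table PHGDH was 39.8, 61.7 and 48.9 CPM in Control 24 h, 39.2, 54.5 and 52.8 in SP 3 h and 40.4, 43.5 and 46.3 in SP 24 h, which overlapped (24 h: −0.21 ± 0.18, adjusted p = 0.398; −0.49 and 0.0349 with the GC content and length correction).

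PSAT1 had fallen by 24 h. It was at 263, 241 and 243 CPM in Control 24 h, 221, 228 and 269.7 in SP 3 h and 158, 148 and 161 in SP 24 h. SP 3 h overlapped the control and SP 24 h lay below both, at −0.68 ± 0.10 (adjusted p = 0.00137). Its later libraries held 326, 345 and 289 CPM in Control 3 days, 84.6, 88.2 and 78.1 in SP 3 days and 136, 148 and 101 in SP 12 days, again with the control above, at −1.94 ± 0.12 and −1.32 ± 0.12 (adjusted p = 1.12e-08 and 4.51e-07). PSPH showed the same order, with 63.6, 62.4 and 62.6 CPM in Control 24 h, 58.2, 64.6 and 61.8 in SP 3 h and 37.9, 36.2 and 37.4 in SP 24 h. It had fallen by 24 h, at −0.76 ± 0.09 (adjusted p = 0.000402), and not at 3 h (−0.03 ± 0.09, 95% interval −0.20 to 0.14). PSPH in Control 3 days was 93.2, 97.1 and 90.7 CPM, in SP 3 days 37.1, 37.8 and 32.4 and in SP 12 days 48.1, 51.8 and 37.0, with log2 fold changes of −1.39 ± 0.11 and −1.04 ± 0.11 (adjusted p = 6.96e-08 and 1.21e-06). PSPH and SLC3A2 did not reach the study's threshold at 12 days without SP 12 days replicate 3, and SLC3A2 also without Control 3 days replicate 3.

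MTHFD2, the mitochondrial folate enzyme of the one-carbon pathway, fell at 24 h, 3 days and 12 days. It held 213, 152 and 179.8 CPM in Control 24 h, 158, 132 and 180.5 in SP 3 h and 119, 95.4 and 115 in SP 24 h. The 24 h group lay below both others, at −0.73 ± 0.16 (adjusted p = 0.0089). MTHFD2 in Control 3 days stood at 286, 299 and 271 CPM, in SP 3 days at 58.5, 61.1 and 59.9 and in SP 12 days at 79.9, 91.0 and 67.3. SP libraries were far below the control, at −2.25 ± 0.10 and −1.84 ± 0.10 (adjusted p = 1.34e-10 and 7.22e-10). SHMT2, which feeds the same pathway from serine, fell by 0.57 ± 0.09 and 0.61 ± 0.09 at 3 and 12 days, the smallest changes of the 6 enzymes at those times, and with the GC content and length correction it was called lower at 24 h too (−0.55, adjusted p = 0.0154).

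The transporters SLC7A5 and SLC3A2, which form a heterodimer that imports leucine and other large neutral amino acids, fell at 3 and 12 days, and SLC38A2, a glutamine and alanine carrier, did not pass the test at any time in the uncorrected fit. SLC7A5 held 1599, 1618 and 1802 CPM in Control 3 days, 874, 892 and 968 in SP 3 days and 1193, 1387 and 941 in SP 12 days. The control was above both SP groups, at −0.88 ± 0.12 and −0.51 ± 0.12 (adjusted p = 1.67e-05 and 0.0019). SLC7A5 varied more in the early table, with 1735, 1650 and 2563 CPM in Control 24 h, 2566, 2460 and 1835 in SP 3 h and 1603, 1159 and 1483 in SP 24 h. SP 24 h lay below the control, at −0.49 ± 0.20 (adjusted p = 0.1), and passed with the replicate block on these groups alone (adjusted p = 0.0329) and with the GC content and length correction (−1.09, adjusted p = 0.00047). SLC3A2 stood at 716, 668 and 833 CPM in Control 24 h, 736, 699.8 and 661 in SP 3 h and 591, 456 and 549.8 in SP 24 h. It fell at 24 h by 0.47 ± 0.12 (adjusted p = 0.0199, lost without SP 24 h replicate 2 or 3). SLC3A2 libraries at the later times held 825, 827 and 886 CPM in Control 3 days, 327, 348 and 344 in SP 3 days and 442, 483 and 338 in SP 12 days, at −1.32 ± 0.11 and −1.01 ± 0.11 (adjusted p = 1.06e-07 and 1.58e-06). For SLC38A2 the log2 fold changes were −0.10 at 3 days and −0.21 at 12 days (adjusted p = 0.341 and 0.0578), with 95% intervals of −0.27 to 0.07 and −0.38 to −0.04. The GC content and length correction called it lower at 12 days (−0.28, adjusted p = 0.00283), and together with the replicate block higher at 24 h (0.32, adjusted p = 0.0195).

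CARS1 and AARS1 load tRNA with cysteine and alanine. CARS1 held 149, 149 and 168 CPM in Control 3 days, 72.2, 72.0 and 75.5 in SP 3 days and 80.7, 81.8 and 78.8 in SP 12 days. AARS1 held 730, 745 and 811 CPM in Control 3 days, 340.3, 341 and 382 in SP 3 days and 341, 374 and 297 in SP 12 days. Both controls were above all SP libraries, and CARS1 fell by 1.09 ± 0.08 and 0.95 ± 0.08 and AARS1 by 1.10 ± 0.09 and 1.18 ± 0.09 on the log2 scale at 3 and 12 days (adjusted p between 1.75e-08 and 1.43e-07). At the early times neither passed the test. CARS1 was at 74.4, 66.4 and 76.6 CPM in Control 24 h, 69.5, 72.5 and 72.7 in SP 3 h and 67.0, 70.3 and 74.5 in SP 24 h, and AARS1 at 277, 323 and 372, 303, 350.4 and 270.3 and 362, 395 and 379. The 24 h differences were −0.04 ± 0.10 and 0.23 ± 0.13 (adjusted p = 0.783 and 0.228), and the GC content and length correction moved CARS1 to −0.42 (adjusted p = 0.0273).

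Of the sensor group, ERN1 and XBP1 fell and EIF2AK3 rose at 3 and 12 days. ERN1, the IRE1 kinase and nuclease, held 13.8, 18.6 and 18.2 CPM in Control 24 h, 26.0, 31.1 and 19.8 in SP 3 h and 23.2, 29.8 and 27.2 in SP 24 h. Both SP groups lay above the control, and ERN1 rose at 24 h by 0.67 ± 0.19 (adjusted p = 0.0278, lost without Control 24 h replicate 1 or SP 24 h replicate 2 or 3) and at 3 h was at 0.60 ± 0.19 (adjusted p = 0.0745; 0.50 and 0.0213 with the GC content and length correction). ERN1 in Control 3 days stood at 112, 122 and 116 CPM, in SP 3 days at 41.8, 40.3 and 46.2 and in SP 12 days at 35.6, 37.2 and 38.3. Here the SP libraries lay below the control, at −1.45 ± 0.08 and −1.65 ± 0.08 (adjusted p = 1.53e-09 and 3.87e-10). In CPM, which were scaled within each table, they were still above those of the early table. XBP1, the ERN1 substrate, held 44.8, 57.1 and 49.3 CPM in Control 24 h, 38.2, 43.1 and 42.1 in SP 3 h and 45.4, 53.0 and 53.9 in SP 24 h, with SP 3 h below the control but not past the test (−0.29 ± 0.12, adjusted p = 0.172). XBP1 in Control 3 days was 180, 171 and 169 CPM, in SP 3 days 102, 113 and 100.1 and in SP 12 days 81.1, 81.1 and 139. All SP libraries were lower, SP 12 days replicate 3 least so, at −0.72 ± 0.18 and −0.79 ± 0.18 (adjusted p = 0.00838 and 0.00505), and without SP 12 days replicate 3 the latter was −1.11.

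EIF2AK3 (PERK), the eIF2 kinase of the ER, rose slightly at the late times. It stood at 22.0, 22.9 and 21.3 CPM in Control 3 days, 25.6, 26.4 and 25.1 in SP 3 days and 30.5, 29.99 and 29.6 in SP 12 days. The 3 groups did not overlap, and the rise was 0.45 ± 0.09 at 12 days (adjusted p = 0.000439). The 3-day value of 0.22 ± 0.09 (adjusted p = 0.0461) lost its call without any of 8 of the 9 libraries of the table, with DESeq2, without the expression filter and with the GC content and length correction. EIF2AK3 was 20.8, 23.6 and 17.1 CPM in Control 24 h, 19.6, 19.8 and 21.6 in SP 3 h and 18.4, 19.8 and 19.1 in SP 24 h, which overlapped.

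Of the 7 ER chaperones and folding enzymes, SDF2L1 rose at 24 h, 3 days and 12 days, and DNAJB9 rose at 12 days. By edgeR without the GC content and length correction, 0 fell in the comparisons with control. At an unadjusted p under 0.05 PDIA4 was lower at 12 days, where DESeq2 called it. SDF2L1, which works with BiP and DNAJB cochaperones, held 48.0, 44.5 and 44.3 CPM in Control 24 h, 47.4, 49.98 and 48.8 in SP 3 h and 65.7, 64.4 and 71.1 in SP 24 h. Its later libraries held 45.2, 41.5 and 46.9 in Control 3 days, 64.99, 62.9 and 56.4 in SP 3 days and 57.5, 55.8 and 54.5 in SP 12 days. SP lay above the control from 24 h on, at 0.56 ± 0.09, 0.46 ± 0.08 and 0.33 ± 0.08 (adjusted p = 0.0022, 0.00031 and 0.0044), but with the GC content and length correction the values were −0.08, 0.09 and 0.08 and none passed. DNAJB9 (ERdj4), a cochaperone and a target of spliced XBP1, stood at 27.2, 29.1 and 26.2 CPM in Control 3 days, 27.1, 27.7 and 25.7 in SP 3 days and 34.4, 28.6 and 34.6 in SP 12 days. SP 12 days replicates 1 and 3 lay above the control and replicate 2 within it. The rise of 0.24 ± 0.10 (adjusted p = 0.047) lost its call without any of 8 of the 9 libraries, with DESeq2 and with another scaling of the libraries. It was also lost without the expression filter, with the replicate block and with only the groups compared. DNAJB9 in the early table was 16.0, 17.9 and 9.29 CPM in Control 24 h, 13.7, 13.04 and 16.4 in SP 3 h and 14.8, 14.7 and 12.97 in SP 24 h, which overlapped, though the correction called it higher at 24 h (0.40, adjusted p = 0.0449; −0.02 without it).

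HSPA5 (BiP), the chaperone most used as a readout of ER stress, was chosen for mention after its values were seen. Its libraries held 580.1, 641 and 647 CPM in Control 24 h, 645, 759 and 735 in SP 3 h and 722, 687 and 719.5 in SP 24 h, and 709.9, 703 and 724 in Control 3 days, 696, 725 and 738 in SP 3 days and 699, 676 and 592 in SP 12 days. All SP 24 h libraries lay above Control 24 h and all SP 12 days libraries below Control 3 days, while SP 3 h and SP 3 days overlapped their controls. Of all genes, 24.6% were wholly higher at 24 h and 27.3% wholly lower at 12 days. No comparison with control passed the test, and the 95% intervals of the log2 fold change were 0.01 to 0.38 at 3 h, −0.0007 to 0.38 at 24 h, −0.15 to 0.18 at 3 days and −0.28 to 0.04 at 12 days. The other 4 of this role were the chaperone HSP90B1, the protein disulfide isomerases PDIA4 and PDIA6, and CRELD2. Their log2 fold changes ran from −0.13 to 0.09 at 3 h, −0.07 to 0.16 at 24 h, −0.03 to 0.06 at 3 days and −0.19 to −0.04 at 12 days, with 0 past the test by edgeR and 1, PDIA4 at 12 days, by DESeq2. PDIA4 and PDIA6 in SP 12 days and PDIA6 in SP 3 h lay wholly below their controls, and CRELD2 in SP 24 h lay wholly above. The GC content and length correction called CRELD2 lower at 24 h, 3 days and 12 days (−0.40, −0.33 and −0.37), and HSPA5, PDIA4 and PDIA6 lower at 12 days (−0.21, −0.27 and −0.18).

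Among the degradation factors, HERPUD1, a membrane component of the ER-associated degradation complex, fell at 3 and 12 days. It held 99.8, 98.9 and 102 CPM in Control 3 days, 46.9, 45.4 and 46.9 in SP 3 days and 47.3, 53.3 and 41.5 in SP 12 days. The control was above all SP libraries, at −1.11 ± 0.09 and −1.08 ± 0.09 (adjusted p = 7.73e-08 and 8.46e-08). In the early table HERPUD1 was 42.1, 51.6 and 55.3 CPM in Control 24 h, 29.4, 43.0 and 34.5 in SP 3 h and 38.0, 54.8 and 50.1 in SP 24 h, which overlapped (−0.48 ± 0.18 at 3 h, adjusted p = 0.138). The replicate block, alone or with the GC content and length correction, called HERPUD1 lower at 3 h. EDEM1, a lectin-like factor that sends misfolded glycoproteins to degradation, stood at 74.8, 77.3 and 79.7 CPM in Control 24 h, 88.7, 99.4 and 84.6 in SP 3 h and 94.4, 100.1 and 94.9 in SP 24 h, and at 122, 131 and 120.5 in Control 3 days, 142, 136 and 137 in SP 3 days and 175, 181 and 164 in SP 12 days. Every SP library lay above the control of its table, and the rise passed at 24 h (0.32 ± 0.09, adjusted p = 0.0304, lost without any of 6 of the 9 libraries) and at 12 days (0.48 ± 0.07, adjusted p = 7.26e-05), not at 3 days (0.15 ± 0.07, adjusted p = 0.109). SEL1L, an adaptor of the same degradation machinery, did not pass in the uncorrected fits against control, with log2 fold changes from −0.15 to 0.14. Its SP 12 days libraries lay wholly below Control 3 days. The GC content and length correction called it lower at 12 days (−0.24, adjusted p = 0.00576), and together with the replicate block higher at 24 h (0.34, adjusted p = 0.0396).

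The level of the members, as CPM per kilobase of exon, differed widely within a role. NUPR1 was the lowest of the 7 regulators in all 6 groups, from 0.199 in SP 24 h to 6.87 in Control 3 days, and ATF4 was the highest in both controls, at 72.2 and 137. CEBPB was the highest in SP 3 h, SP 24 h and SP 3 days, at 94.7, 99.3 and 90.8. ASNS was the lowest and PSAT1 the highest of the enzymes throughout, at 2.21 and 145 in Control 3 days. The ASNS level is uncertain for its shared exons, and exon length was the union of all annotated exons of a gene. SLC7A5 led the transporters, from 191 in SP 3 days to 480.1 in SP 3 h, and XBP1 led the sensor group, from 13.6 in SP 3 h to 57.2 in Control 3 days.

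Within SP, the 2 exposures of each table were compared directly. Between SP 24 h and SP 3 h, 1 member was higher at 24 h (SDF2L1) and 7 were lower, against 11.7% and 8.4% of all genes. The lower ones were ATF5 (−1.31 ± 0.18, adjusted p = 0.00168), DDIT3 (−0.66 ± 0.16, 0.0181), PSAT1 (−0.62 ± 0.10, 0.00363), PSPH (−0.73 ± 0.09, 0.00109), PPP1R15A, MTHFD2 and SLC7A5. The last 3, and DDIT3, lost their calls on leaving out any of 4 or 5 libraries, and without SP 24 h replicate 1 or 2 the lower members numbered 3. With the GC content and length correction SDF2L1 (0.04) and MTHFD2 (−0.48) lost their calls, and CEBPB, SESN2 and SLC3A2 were called lower. Between SP 12 days and SP 3 days, 6 members were higher at 12 days and 1 lower, against 4.46% and 3.65% of all genes. The higher ones were ATF5 (0.80 ± 0.17, adjusted p = 0.00844), PSAT1 (0.62 ± 0.12, 0.00619), STC2 (0.52 ± 0.12, 0.0154), MTHFD2 (0.41 ± 0.10, 0.0179), SESN2 and EDEM1, and VLDLR was lower (−0.38 ± 0.09, 0.0182). These counts moved with single libraries: 13 were higher and 6 lower without SP 12 days replicate 3, and 0 were higher and 0 lower without SP 3 days replicate 3. No member passed the study's threshold in either comparison, where 0.0288% of genes were higher between 24 h and 3 h (none lower), and 0.152% higher and 0.0281% lower between 12 and 3 days, and DESeq2 placed 1 lower past it at 24 h against 3 h and 0 at 12 against 3 days.

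The 3-day effect of SP was then set against the 24 h effect, each with its own control, in a fit of all 18 libraries. The SP effect was lower at 3 days for 19 members and higher for 0, against 3.15% and 3.13% of all 18785 genes tested, and at an unadjusted p under 0.05 for 23 and 1 (10.2% and 10.9%). The 19 were 17 genes of the ATF4 side, ERN1 and HERPUD1. The difference was largest for CHAC1 (−3.79 ± 0.28 on the log2 scale, adjusted p = 1.13e-06), NUPR1 (−2.90 ± 0.28, 1.41e-05), STC2 (−2.12 ± 0.32, 0.00106) and ERN1 (−2.07 ± 0.21, 2.19e-05). CHAC1, NUPR1, ERN1 and DDIT4 (−1.80 ± 0.17, 1.17e-05) passed the study's threshold, as lower, against 0.0586% of all genes, and 0 as higher, against 0.0426%, and without SP 3 days replicate 1 or SP 24 h replicate 2 the number was 1 or 2. ATF4 itself (−0.40 ± 0.16, adjusted p = 0.146) and ATF5 (0.06 ± 0.26, 0.92) did not differ past the test. Of the XBP1 and ATF6 side, 9 of 10 did not pass, with EDEM1 at −0.13 ± 0.12 and HSPA5 at −0.13 ± 0.13. Since each time belongs to another table, time and table cannot be told apart.

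The levels of the 2 tables were also compared group by group, a comparison added after the levels had been seen. Against Control 24 h, Control 3 days was higher for 25 members and lower for 3, against 25% and 26.7% of all genes, and 13 were higher and 1 lower at the study's threshold (4.39% and 3.33%). The 13 were CHAC1 (4.24 ± 0.21 on the log2 scale), NUPR1 (3.70 ± 0.18), ASNS (2.97 ± 0.21), ERN1 (2.58 ± 0.15), DDIT3 (2.01 ± 0.15), SESN2, XBP1 (1.58 ± 0.16), TRIB3, STC2, DDIT4, PHGDH, VLDLR and AARS1, and ATF5 was lower (−1.50 ± 0.18). Of the 3 lower at an adjusted p under 0.05, 1 was left without Control 3 days replicate 1 or 2 or Control 24 h replicate 3. HSPA5 differed by −0.01 ± 0.09. Between SP 3 days and SP 24 h, 13 were higher and 8 lower, against 22.3% and 20.4%. CHAC1 differed there by 0.45 ± 0.19 (adjusted p = 0.0674), NUPR1 by 0.80 ± 0.21, DDIT4 by −0.26 ± 0.12 (0.0794) and ERN1 by 0.51 ± 0.14. None was higher and 3 (ATF5, PSAT1 and MTHFD2) were lower past the study's threshold, against 2.4% and 1.42% of genes, and without SP 3 days replicate 1 or 3 that number was 0. The higher members numbered 6 without SP 3 days replicate 3 or SP 24 h replicate 1. These comparisons share libraries with those above and with each other through the same groups, and time in culture, table and any other difference between the 2 sets of libraries cannot be told apart.

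**Figure D5:**
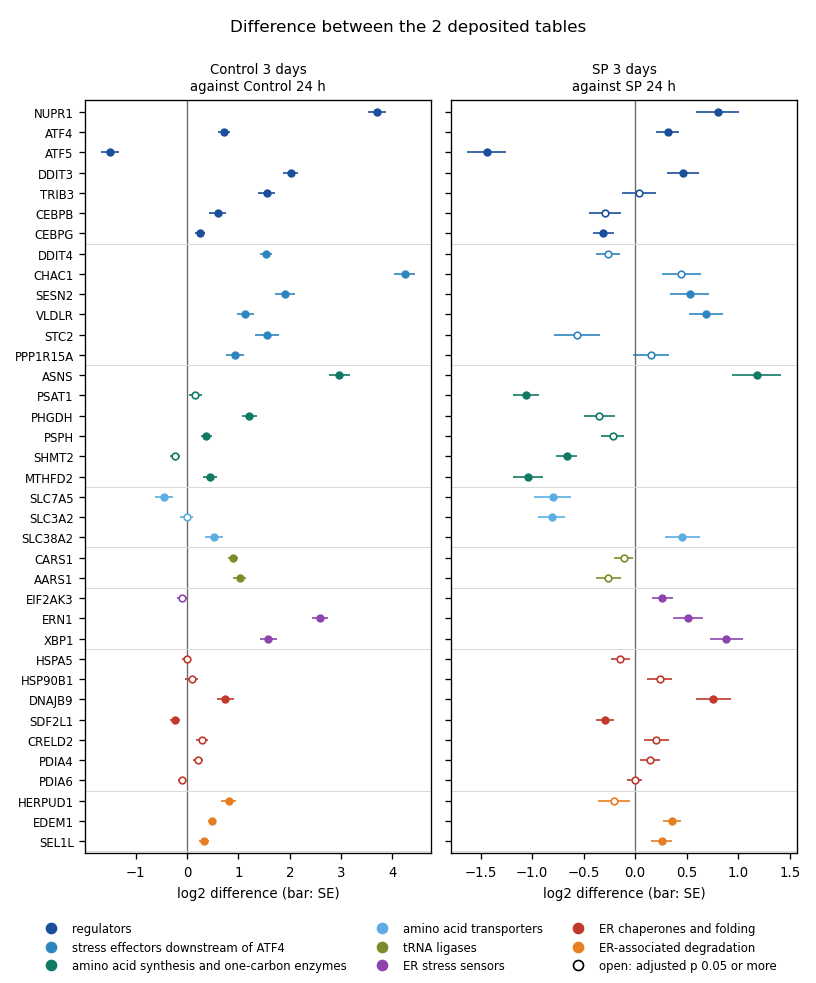
Log2 difference of each member between the 2 deposited tables (points with SE bars, filled at an adjusted p under 0.05), for the untreated groups on the left and the SP groups on the right; the x axes differ. The untreated groups differ by 4.24 for CHAC1 and 3.70 for NUPR1, and the SP groups by 0.45 and 0.80.

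Other genes of the pathway, listed by what is known of them, were counted in the same fits. The lists were chosen with earlier results of these data known, so the counts are not an independent test. Of 33 further ATF4 targets 32 were tested, and 26 fell and 2 rose at 3 days (median −0.85), 27 fell and 2 rose at 12 days (median −0.87), 7 fell and 5 rose at 24 h, and 3 rose at 3 h. Of all genes, 25.2% rose and 23.3% fell at 3 days, 26.4% and 23.4% at 12 days, 16.8% and 12% at 24 h, and 7.39% and 4.11% at 3 h. The risers of the list at 24 h and 3 h made up shares near these. Among those that fell at 3 days were SLC7A11, the cystine carrier (−1.69, adjusted p = 1.47e-05), SLC7A1, the arginine carrier (−1.59, 1.47e-07), the tRNA ligases MARS1 (−1.48, 1.36e-08) and GARS1 (−1.47, 2.63e-08), and PCK2, the mitochondrial phosphoenolpyruvate carboxykinase (−1.24, 1.25e-08). The risers at both late times were ALDH18A1, an enzyme of proline synthesis (0.28 and 0.20), and ATF3, a stress-induced leucine zipper factor (0.54 and 1.31), which had also risen at 3 h (1.54, adjusted p = 0.00157) and 24 h (0.78, 0.0147). Of 25 further ER genes of the unfolded protein response 24 were tested, with 8 higher and 5 lower at 3 days (median 0.18), 6 higher and 2 lower at 12 days (median 0.06), 3 and 3 at 24 h, and 1 higher at 3 h, against the same shares of all genes. WFS1, an ER membrane protein, passed the study's threshold at 3 days and rose at all 4 times (0.91, 1.08, 1.06 and 0.87), CALR, an ER chaperone, rose at 24 h and 3 days (0.46 and 0.36), and DERL2, a degradation factor, fell at 24 h, 3 days and 12 days (−0.57, −0.49 and −0.34). In the test of the 3-day against the 24 h effect, 19 of the 32 ATF4 targets were lower and 1 higher, and 0 of the 24 ER genes passed in either direction, with 3 higher and 0 lower at an unadjusted p under 0.05. Genes of these lists were named as examples after their values were seen.

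Of 15 genes for eIF2 kinases, eIF2 and its exchange factor, and ATF6 and its processing, 1 rose and 3 fell at 3 days, 3 fell at 12 days, 2 fell at 24 h, and 1 rose at 3 h, with the shares that fell near or below those of all genes. EIF2AK1 (HRI), the heme-regulated kinase, rose by 0.22 at 3 days (adjusted p = 0.0188), and EIF2AK4 (GCN2), the amino acid sensor, fell by 0.61 at 24 h (adjusted p = 0.00306). PPP1R15B, which directs dephosphorylation of eIF2 without stress, rose at 3 h (0.45, adjusted p = 0.00969) and fell at 3 and 12 days (−0.43 and −0.35). ATF6B and the ATF6-cleaving protease gene MBTPS2 fell at both late times (−0.67 and −0.43 at 3 days), while ATF6 was at 0.09 (adjusted p = 0.327).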

How the data were processed

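Total RNA of 18 A549 libraries was sequenced in paired-end reads. Per the labels and the study's methods, the authors aligned reads with STAR (2.7.9a) to GRCh38, counted reads per gene with featureCounts (Ensembl release 105), and deposited raw read counts in 2 tables of 9 libraries. Strandedness is not given in the sources used here, so reads of overlapping antisense genes cannot be told apart, and pseudogenes (4 each of ATF4, ASNS and PSAT1, and 7 of MTHFD2) could share reads with their parents. The 37 members and all lists were chosen with earlier results of these data known.

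Counts were TMM-scaled, filtered (filterByExpr, minimum count 10) and fitted per table with edgeR (4.0.16, R 4.3.3), using the quasi-likelihood test over all genes that passed (17377 and 17775) with Benjamini-Hochberg adjustment. A joint fit of the 18 libraries served the comparisons across tables. CPM are TMM-scaled within each table, so CPM of the 2 tables are not on a common scale. Errors of log2 fold changes are SE, and library depth limits the precision of low genes. Values in every library are given for NUPR1 and ATF4, for members past the study's threshold in any comparison with control, and for up to 4 members per role with the largest absolute change at an adjusted p under 0.05, and other members by range. Alternatives were size factors (RLE), no filter, only the groups compared, the replicate number as a block, an offset for GC content and exon length, DESeq2 (1.42.0) and leaving out each library. Scripts were tested on simulated data with 200 changed genes in each comparison with control. Of 50 genes changed 2-fold, 30% were called at 3 h, 54% at 24 h, 76% at 3 days and 76% at 12 days. Of 50 changed 1.5-fold, the shares were 4%, 4%, 50% and 64%. Changes of this size were thus called less often at the early times, which limits a comparison of early and late counts. Same-numbered libraries of Control 24 h and SP 24 h deviated together (correlations 0.499, 0.17 and 0.504), and those of the other comparisons ran from −0.592 to 0.377. Unlike-numbered libraries also did so. SP 24 h replicate 2 and Control 24 h replicate 3 were at 0.175. SP 3 h replicate 3 and Control 24 h replicate 1 were at 0.576, and SP 3 h replicate 2 and Control 24 h replicate 3 at 0.519. Pairing by replicate number is thus not established, and the block served only as an alternative.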

Additional observations from a re-analysis of the deposited data

Results flagged for a closer look

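The effect of SP differed between 3 days and 24 h, by the test of the difference itself at the study's threshold, for 4 members. The differences on the log2 scale (3-day effect minus 24 h effect) were −3.79 for CHAC1, −2.90 for NUPR1, −2.07 for ERN1 and −1.80 for DDIT4. In each of the 4 genes Control 3 days stood above Control 24 h (log2 differences of 4.24, 3.70, 2.58 and 1.53), while SP 3 days and SP 24 h differed by 0.45, 0.80, 0.51 and −0.26. The 2 times come from different tables, so what the difference is due to was not tested.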

How the results depend on the processing

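Counts of members with 1 library left out ran, for higher and lower, from 1 to 2 and 1 to 4 at 3 h, 2 to 5 and 6 to 8 at 24 h, 1 to 2 and 25 to 25 at 3 days, and 3 to 4 and 25 to 30 at 12 days, and at the study's threshold from 18 to 19 at 3 days and 13 to 16 at 12 days. They ran from 1 to 1 and 3 to 8 between SP 24 h and SP 3 h, 0 to 13 and 0 to 6 between SP 12 days and SP 3 days, 0 to 0 and 16 to 22 for the difference of effects (1 to 6 at the study's threshold), 23 to 25 and 1 to 4 between the controls (11 to 14), and 6 to 10 and 7 to 9 between SP 3 days and SP 24 h (0 to 2).

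Without the expression filter, higher members were 3 at 3 h, 1 at 3 days, 10 between SP 12 and 3 days and 8 between SP 3 days and 24 h, and members past the study's threshold 1 at 24 h, 1 between SP 24 h and 3 h and 15 for the difference of effects. With the replicate block, higher members were 2 at 3 h and 3 between SP 24 h and 3 h. With the GC content and length offset, higher members were 2 at 3 h, 3 at 24 h, 0 at 3 days and 0 between SP 24 h and 3 h, lower members 16 at 24 h, 2 between SP 12 and 3 days, 5 between the controls and 14 between SP 3 days and 24 h, and 1 passed the study's threshold at 24 h. With block and offset together these were 5 higher at 3 h, 17 lower and 1 past the threshold at 24 h, 0 higher at 3 days, 2 higher between SP 24 h and 3 h and 2 lower between SP 12 and 3 days. DESeq2 gave 1 higher at 3 days, 2 lower between SP 12 and 3 days, and 1 past the threshold at 24 h and between SP 24 h and 3 h. With only the groups compared, 1 fell at 3 h, 3 rose at 24 h and 0 fell between SP 12 and 3 days. No share of all genes is given for any of these fits, nor for those with 1 library left out. The total of genes called can move with the fit, so these counts are not read as particular to the members.

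Signs that turned did so with the offset or with block and offset: at 24 h DNAJB9 (0.398 and 0.397), SDF2L1 (−0.076 and −0.073), CRELD2 (−0.404 and −0.397), and with both together SESN2 (−0.338) and SLC38A2 (0.316), between SP 24 h and 3 h CEBPB (−0.403 and −0.404) and, with both, SLC38A2 (0.265), and between SP 3 days and 24 h EIF2AK3 (−0.056) and SEL1L (−0.006). The cause was not tested. The replicate block changed the 24 h calls of CHAC1 and DDIT4 and, with the groups compared alone, SLC7A5. Against control, it also changed the 3 h calls of CHAC1 and HERPUD1 and the 12-day call of DNAJB9. Single members gave 1814 of 1961 values with direction and call unchanged over these settings, and 2670 of 2886 with 1 library left out. At low counts the early table limits NUPR1, ASNS and CHAC1 most.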
